A study of Mus musculus with 9 samples.

Results

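The unfolded protein response and the folding machinery of the endoplasmic reticulum (ER) were followed in mouse liver through 36 genes chosen by name, of which 35 had a probe set among the 22206 tested. Each gene was read from 1 probe set, the one with the highest mean over all 9 arrays, and the genes were grouped by role into 14 measured chaperones and folding enzymes, 9 genes of ER-associated degradation (ERAD), 3 genes of protein translocation, 4 sensor genes with Xbp1, and 5 genes of the PERK-ATF4 arm. Pdia4 was not analysed here. Of the 35, 5 (Manf, Creld2, Dnajb9, Syvn1 and Asns) are also in a gene list that the study compiled on these same arrays, so their values here are not independent evidence. Manf was measured here only through that list, since the platform annotation did not name its probe set. Its place among the 35 thus depended on these data.

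Clariom S mouse arrays were run on total RNA of non-tumor liver from male C57BL/6 mice aged 40 weeks, 3 arrays to a group, and the groups are called WT, MUP and HNK. All 3 groups were fed a high-fat diet from 6 weeks of age. WT were wild-type mice with control treatment, MUP were MUP-uPA transgenic mice with control treatment, and HNK were MUP-uPA transgenic mice given honokiol, a plant biphenol, at 10 mg/kg by intraperitoneal injection 3 times per week, starting at 32 weeks and ending at 40 weeks. The transgene expresses urokinase-type plasminogen activator from the major urinary protein promoter, which is active in hepatocytes, and the line had been backcrossed for at least 12 generations. MUP against WT therefore compares genotypes, HNK against MUP compares treatments within the transgenic line, and HNK against WT differs in both. The design text speaks of 6 mice while 9 samples are deposited, and the labels name no animals, so the p-values measure the spread between these arrays.

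Secreted and membrane proteins enter the ER through the Sec61 channel and fold there with the help of chaperones, lectins and disulfide isomerases. When unfolded proteins build up, the sensors IRE1, PERK and ATF6 are released from the chaperone BiP. IRE1 splices the mRNA of XBP1, ATF6 is cut to yield a transcription factor, and PERK slows translation while favouring ATF4. XBP1 and ATF6 raise chaperone and ERAD genes, and ATF4 raises genes of amino acid supply and of recovery or death. The liver carries a heavy secretory load, and its ER stress has been studied widely in fatty liver disease. Arrays of this kind measure total mRNA, so neither Xbp1 splicing nor sensor activation was read.

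Elements through which these transcription factors are known to act were searched in the promoters of the members, taken from RefSeq on GRCm38.p6, each 250 bases before to 50 bases after the annotated start. Of the 35 measured members, 30 had an entry; Hyou1, Manf, Derl1, Sec61a1 and Atf6 had none. The ER stress element (ERSE), CCAAT and CCACG separated by any 9 bases, was searched on both strands. It was found in 10 member promoters and in 0.119% of all 32851 promoters in the table. The members were chosen as genes of this response, so their higher share is no test and no result about the groups. All 11 matches are printed with the fixed bases in capitals, each on the strand where it reads as the element.
Hspa5: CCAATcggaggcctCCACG
Creld2: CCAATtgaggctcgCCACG
Dnajc3: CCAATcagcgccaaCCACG
Syvn1: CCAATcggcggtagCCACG
Hsp90b1, farther from the start: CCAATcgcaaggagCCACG
Hsp90b1, nearer to the start: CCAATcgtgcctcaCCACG
Calr: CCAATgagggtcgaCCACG
Canx: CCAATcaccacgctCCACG
Pdia6: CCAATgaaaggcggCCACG
Ero1lb: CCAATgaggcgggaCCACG
Derl3: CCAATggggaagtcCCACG

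The matches of Creld2, Calr, Derl3 and Ero1lb and the nearer match of Hsp90b1 lie on the strand opposite to the gene. The match began 65 bases before the start in Hspa5, 105 in Dnajc3, 44 in Syvn1 and 126 in Creld2. The related ERSE-II, ATTGG and CCACG separated by 1 base, was found in Herpud1 (ATTGGgCCACG) and Dnajb11 (ATTGGcCCACG), against 0.0365% of all promoters. ERSE and ERSE-II share CCACG, and no member held both. The UPR element TGACGTGG was found in 0 of the 30 and in 0.676% of all promoters. The ATF4-C/EBP element TGATGNAA was found in Asns (TGATGaAA), Trib3 (TGATGtAA) and Herpud1 (TGATGcAA) and in 3.97% of all promoters. A match describes these letters only and is not a measured binding site.

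The 250 bases before the start are shown for the 5 genes with a match that were described with a value on every array, in lower case with the fixed bases of the ERSE (Hspa5, Creld2, Dnajc3, Syvn1) or of the ATF4-C/EBP element (Asns) in capitals. In Creld2 the capitals read as the reverse complement.
Hspa5 (chr2:34771840-34772089, plus strand): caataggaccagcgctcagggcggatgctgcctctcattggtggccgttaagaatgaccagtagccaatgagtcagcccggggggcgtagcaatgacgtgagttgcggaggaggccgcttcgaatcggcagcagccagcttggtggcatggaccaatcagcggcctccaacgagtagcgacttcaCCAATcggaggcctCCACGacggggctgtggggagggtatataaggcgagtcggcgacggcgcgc
Creld2 (chr15:88819396-88819645, plus strand): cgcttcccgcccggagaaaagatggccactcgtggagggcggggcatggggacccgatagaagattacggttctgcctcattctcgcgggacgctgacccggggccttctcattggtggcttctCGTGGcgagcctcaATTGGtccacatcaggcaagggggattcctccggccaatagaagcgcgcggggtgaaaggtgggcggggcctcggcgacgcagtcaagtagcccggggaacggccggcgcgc
Dnajc3 (chr14:118937682-118937931, plus strand): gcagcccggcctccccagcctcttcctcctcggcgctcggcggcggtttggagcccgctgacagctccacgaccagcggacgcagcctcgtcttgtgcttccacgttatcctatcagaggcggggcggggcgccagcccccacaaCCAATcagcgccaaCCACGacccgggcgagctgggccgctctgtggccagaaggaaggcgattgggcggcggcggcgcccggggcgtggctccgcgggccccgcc
Syvn1 (chr19:6046326-6046575, plus strand): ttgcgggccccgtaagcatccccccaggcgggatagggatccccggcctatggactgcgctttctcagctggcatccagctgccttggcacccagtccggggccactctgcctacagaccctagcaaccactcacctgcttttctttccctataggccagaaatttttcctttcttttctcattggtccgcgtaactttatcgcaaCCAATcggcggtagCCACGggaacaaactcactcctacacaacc
Asns (chr6:7693210-7693459, minus strand): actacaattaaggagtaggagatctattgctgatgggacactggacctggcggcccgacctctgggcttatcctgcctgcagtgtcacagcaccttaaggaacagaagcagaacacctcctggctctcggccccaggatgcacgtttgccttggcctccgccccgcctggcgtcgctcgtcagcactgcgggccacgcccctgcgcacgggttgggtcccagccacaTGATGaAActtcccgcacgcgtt

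The arrays read as liver. The 9 measured hepatocyte markers, among them Alb and Ttr, had a median log2 intensity of 19.45 to 19.76 on every array, near the highest value of the table (19.93), and the negative control probes had medians of 4.91 to 5.10. MUP 2 and HNK 3 stood apart: 15 skeletal muscle markers had a median of 12.48 on MUP 2 and 12.26 on HNK 3, against 3.98 to 4.64 on the other 7 arrays. Each call of a member is also given without these arrays. Marker and pathway genes, and single members in HNK against MUP, are given only with them. Of 9 plasma cell markers, a cell type rich in ER chaperones, 2 to 6 per array were above the negative control median; Sdc1, which hepatocytes also express, set the summed level, which was 13.54 to 13.67 in WT, 13.53 to 15.14 in MUP and 13.16 to 14.40 in HNK on the log2 scale. Jchain, the immunoglobulin joining chain, was at 10.68 on MUP 2 and at 4.41 to 7.09 on the others. The 8 macrophage markers had a summed level of 14.90 to 16.33 in WT, 13.44 to 14.47 in MUP and 12.47 to 14.32 in HNK, and all 8 had a lower mean in each of the 3 comparisons (median -1.38 in MUP against WT, -0.37 in HNK against MUP and -1.71 between HNK and WT). The 9 stellate cell and fibroblast markers had a summed level of 16.21 to 16.53 in WT, 15.16 to 15.78 in MUP and 14.81 to 16.10 in HNK. The 5 cholangiocyte markers all had a higher mean than in WT in both transgenic groups (median 0.57 in MUP and 0.32 in HNK). In HNK against MUP 3 of the 5 had a higher mean (median 0.21). Per array 2 or 3 of them were above the negative controls. Of these lists limma called Adgre1 lower in both transgenic groups than in WT (-1.95 in MUP and -1.97 in HNK, adjusted p = 0.0303 and 0.0368). The hepatocyte marker Cps1 was called higher in both (1.24 in MUP and 0.94 in HNK, adjusted p = 0.0102 and 0.0469, limma). In HNK against WT limma also called Vsig4 lower (-3.03, adjusted p = 0.0423) and Epcam higher (1.27, adjusted p = 0.0145). Epcam was below the negative control median on 7 of the 9 arrays, so its difference lies near the floor. The part of these markers in the results below was not tested. In bulk liver, fewer cells of a type and less RNA per cell cannot be told apart.

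Hspa5, which encodes BiP, the main ER chaperone and the regulator of all 3 sensors, fell in honokiol-treated transgenic liver against wild-type liver. Its log2 intensity was 17.85, 17.79 and 18.21 on WT 1 to 3, 17.30, 17.55 and 17.57 on MUP 1 to 3, and 16.54, 17.13 and 16.76 on HNK 1 to 3. The groups were ordered WT, MUP, HNK with no overlap between any of them. In HNK against WT the log2 difference was -1.14 (SE 0.18, n = 3 per group), a 2.21-fold lower level, with an adjusted p of 0.0103 from limma. The call was lost without WT 3 (adjusted p = 0.0631) and with the methods' t-test (adjusted p = 0.221). It was kept without both arrays with muscle signal (adjusted p = 0.0290). The steps on the way did not pass the test: MUP against WT gave -0.47 (95% interval -0.87 to -0.08, adjusted p = 0.204) and HNK against MUP gave -0.67 (-1.07 to -0.27, adjusted p = 0.998).

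Creld2, an ER protein with disulfide isomerase activity that is induced by ER stress, had the lowest difference of all 35 members in HNK against MUP and in HNK against WT. Its log2 intensity was 9.67, 9.33 and 10.62 in WT, 9.50, 9.90 and 10.47 in MUP, and 7.72, 8.61 and 7.41 in HNK. All 3 HNK arrays lay below all 6 others, and WT and MUP overlapped. It fell in HNK against WT by 1.96 on the log2 scale (SE 0.39), 3.89-fold, with an adjusted p of 0.0244 from limma. That call was lost without WT 1 (adjusted p = 0.0796), WT 3 (0.109), HNK 1 (0.0731) or HNK 3 (0.0843), and without both arrays with muscle signal (difference -1.71, adjusted p = 0.0750). The methods' t-test also lost it (adjusted p = 0.296). In HNK against MUP the difference was -2.04 (95% interval -2.89 to -1.19) and the adjusted p was 0.527, and over the alternatives it ranged from 0.149 to 0.9997.

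Manf, an ER-resident and secreted factor that binds BiP, ran a similar course. Its log2 intensity was 14.78, 14.32 and 15.05 in WT, 14.87, 14.64 and 14.90 in MUP, and 13.33, 14.16 and 12.77 in HNK. WT and MUP overlapped, and every HNK array was lower than every other array. It fell in HNK against WT by 1.30 on the log2 scale (SE 0.30), 2.46-fold, with an adjusted p of 0.0490 from limma, close to the threshold. The call was lost under 16 of 20 alternatives, where the adjusted p ranged from 0.00925 without HNK 2 to 0.389 with the methods' t-test, and among single arrays only leaving out HNK 2 kept it. Without both arrays with muscle signal the difference was -0.97 (adjusted p = 0.113). Against MUP, HNK differed by -1.38 (95% interval -2.04 to -0.72, adjusted p = 0.758).

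Dnajc3, which encodes the BiP co-chaperone p58IPK, was lower in both transgenic groups. Its log2 intensity was 14.01, 13.83 and 14.01 in WT, 12.87, 13.26 and 13.53 in MUP, and 12.59, 13.22 and 13.02 in HNK. Both transgenic groups lay below WT, and they overlapped each other. In HNK against WT it fell 2.01-fold (log2 difference -1.004, SE 0.22), with an adjusted p of 0.0360 from limma. The MUP against WT difference of -0.73 (95% interval -1.20 to -0.25) had an adjusted p of 0.0979. The HNK against WT call was lost without WT 1 (0.135), WT 2 (0.0850), WT 3 (0.149), HNK 1 (0.102) or HNK 3 (0.0810), and without both arrays with muscle signal (difference -1.04, adjusted p = 0.0743). That call was also lost without the variance trend and with the methods' t-test.

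Dnajb9, the co-chaperone ERdj4, which also holds IRE1 inactive, was the tightest member in HNK. Its log2 intensity was 13.08, 13.40 and 14.21 in WT, 13.63, 14.30 and 13.64 in MUP, and 12.61, 12.63 and 12.51 in HNK. No HNK array reached any WT or MUP array. Against MUP the difference was -1.27 (95% interval -1.88 to -0.67), with an adjusted p of 0.758 from limma. Against WT it was -0.98 (-1.58 to -0.38, adjusted p = 0.101).

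**Figure D1:**
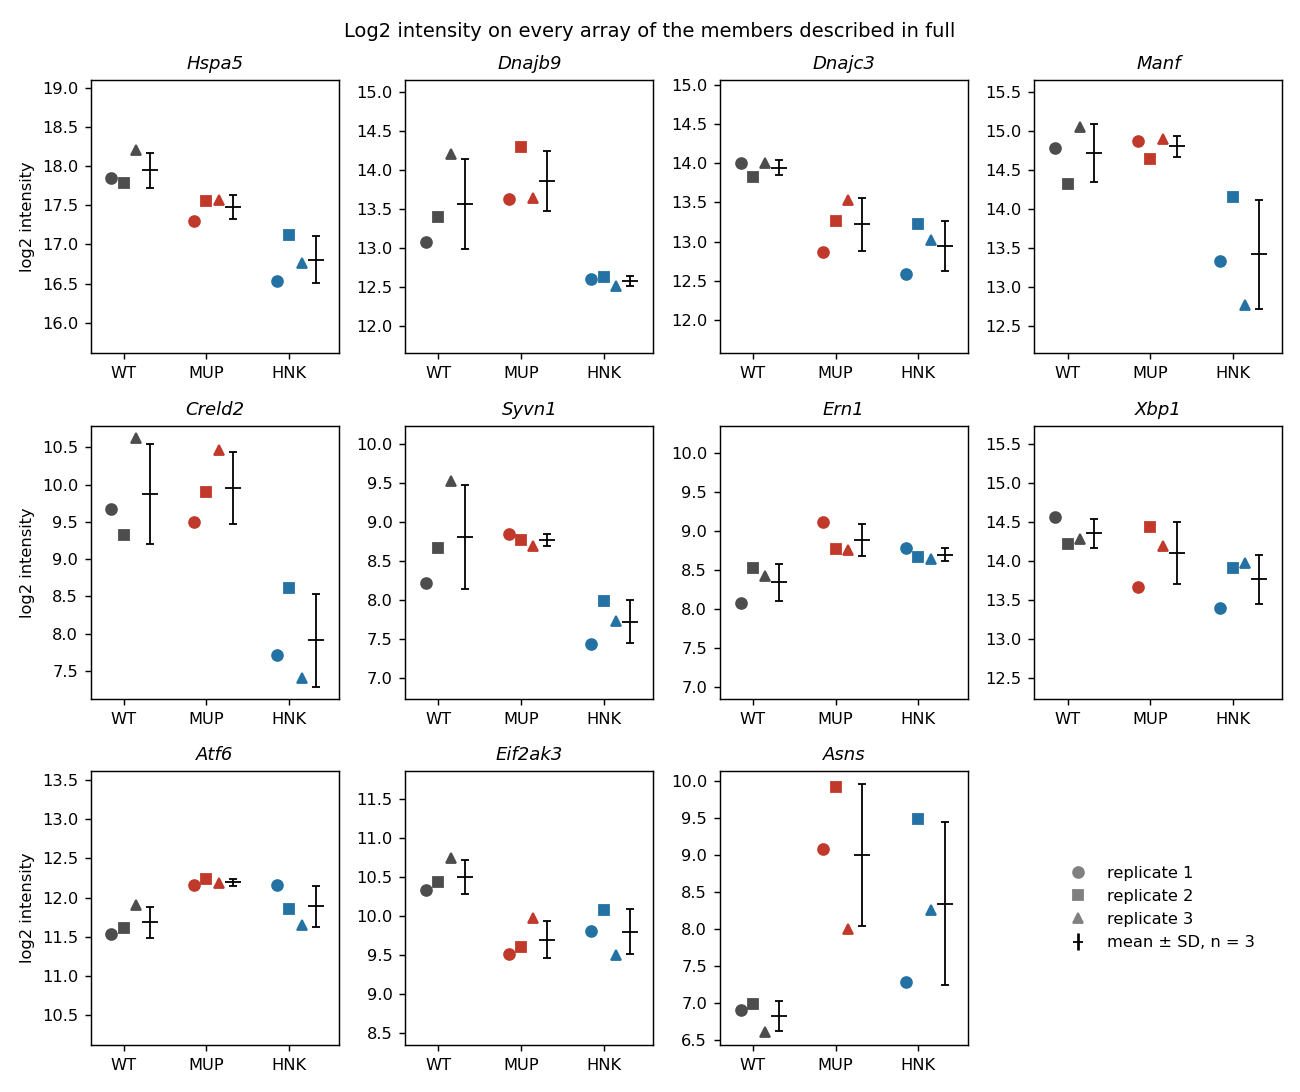
Log2 intensity (vertical axis) of the 11 members described with a value on every array, by group (horizontal axis); each symbol is an array, and the dash and bar to its right are the group mean and SD of 3 arrays. In Hspa5, Dnajb9, Manf, Creld2 and Syvn1 the HNK arrays lie below all WT and MUP arrays, and in Asns the WT arrays lie below all others.

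The chaperone group as a whole had lower means in HNK. All 14 measured members had a lower mean in HNK than in MUP, with a median log2 difference of -0.36 and a range of -2.04 to -0.07, and 12 of 14 had a lower mean in HNK than in WT, with a median of -0.59. Over all probe sets, 51.5% and 50.7% had a lower mean in these comparisons. No chaperone passed the test in HNK against MUP, beside 0% of all probe sets called lower, and 4 of the 14 fell in HNK against WT, beside 1.33%. Manf, 1 of these 4, was named only through the study's gene list. In MUP against WT 8 had a higher and 6 a lower mean, and the median was 0.08. Over all 22206 probe sets 11204 had a higher and 11002 a lower mean there. In that comparison 0 chaperones passed, beside 1.44% of all probe sets called higher and 2.13% called lower.

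Among the other chaperones, Hyou1, the large Hsp70-related partner of BiP, was at 13.14 to 13.28 on the MUP arrays and at 11.88, 13.38 and 11.84 on HNK 1 to 3. Hsp90b1, the ER form of Hsp90, was at 16.44 to 16.66 in MUP and at 15.91, 16.92 and 16.02 in HNK. In both genes HNK 2 was above every MUP array while HNK 1 and HNK 3 were below. Sdf2l1, a partner of the co-chaperone ERdj3, varied widely within groups, from 7.75 to 9.90 in WT and from 7.22 to 9.45 in HNK. The lectin chaperone Canx ran the other way to Hspa5, with means of 14.35 in WT, 14.98 in MUP and 14.82 in HNK and no overlap of WT with either; its MUP against WT difference was 0.63 (95% interval 0.26 to 0.99, adjusted p = 0.0631 from limma). For Dnajb11, Calr, Pdia3, Pdia6 and Ero1lb, a co-chaperone, a lectin chaperone, 2 disulfide isomerases and an oxidase of such isomerases, all HNK against MUP differences lay between -0.43 and -0.07 and their groups overlapped.

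The ERAD genes had 7 of 9 lower means in HNK than in MUP (median -0.31), beside 51.5% of all probe sets. In any comparison 0 of them passed the test, beside 0% to 2.13% of all probe sets called in either direction. Syvn1, the ubiquitin ligase HRD1, was at 8.22, 8.66 and 9.53 in WT, 8.85, 8.77 and 8.69 in MUP, and 7.44, 7.99 and 7.74 in HNK. The HNK arrays lay below all others, and the MUP values fell inside the WT range. The difference was -1.05 in HNK against MUP (95% interval -1.71 to -0.39, adjusted p = 0.998 from limma) and -1.08 in HNK against WT (-1.74 to -0.43, adjusted p = 0.0967). Its partner Sel1l, at 11.03 to 11.48 in MUP and 10.72 to 11.03 in HNK, and the mannosidase-related Edem3, at 10.69 to 10.91 in MUP and 10.03 to 10.42 in HNK, also did not overlap between those groups, with Sel1l groups nearly touching. Herpud1, a membrane protein that organises the ligase complex, was at 16.68 to 16.86 in MUP and 15.28 to 16.36 in HNK, and its WT arrays split into 14.32 on WT 1 and 16.80 and 16.67 on WT 2 and WT 3. With Herpud1, the HNK arrays lay wholly below the MUP arrays in 4 of the 9 ERAD genes, beside 4.48% of all probe sets. Edem1, Edem2, Derl1, Derl2 and Derl3 had differences of -0.31 to 0.06 in HNK against MUP, with overlapping groups, and Derl3, a channel protein typical of secretory cells, was at 4.62 to 6.46 on the 9 arrays and below the negative control median on 1.

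Of the 3 translocation genes, 1 had a lower mean in HNK than in MUP (median 0.11), beside 51.5% of all probe sets. In HNK against WT 2 had a lower mean (median -0.21), beside 50.7%. Ssr1, a translocon-associated protein, was at 12.45 to 12.67 in MUP and 12.74 to 13.01 in HNK, the only member whose HNK arrays all lay above all MUP arrays (difference 0.28, 95% interval -0.11 to 0.67). Sec61a1, the channel subunit, was at 13.85 to 14.18 in WT, 12.88 to 13.78 in MUP and 13.06 to 13.62 in HNK, lower in both transgenic groups than in WT with no overlap (-0.61, adjusted p = 0.213, and -0.71, adjusted p = 0.174, limma). Sec61b, a small subunit of the channel, overlapped in all 3 comparisons.

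The sensor genes and Xbp1 differed among themselves in MUP against WT. Ern1, which encodes IRE1 alpha, was at 8.08, 8.53 and 8.42 in WT, 9.12, 8.77 and 8.76 in MUP, and 8.79, 8.67 and 8.64 in HNK. Atf6 was at 11.54, 11.61 and 11.91 in WT, 12.15, 12.24 and 12.19 in MUP, and 12.17, 11.85 and 11.65 in HNK. For both genes the MUP arrays were above all WT arrays, by means of 0.54 (95% interval 0.09 to 0.99, adjusted p = 0.204 from limma) for Ern1 and 0.51 (0.09 to 0.93, adjusted p = 0.189) for Atf6.

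Eif2ak3, which encodes PERK, lay in the opposite direction. It was at 10.32, 10.43 and 10.74 in WT, 9.51, 9.61 and 9.97 in MUP, and 9.81, 10.08 and 9.50 in HNK. Every transgenic array was below every WT array, and MUP and HNK overlapped. The MUP against WT difference was -0.80 (95% interval -1.29 to -0.32, adjusted p = 0.0762 from limma). Xbp1, the transcription factor gene downstream of IRE1, was at 14.56, 14.22 and 14.28 in WT, 13.67, 14.44 and 14.20 in MUP, and 13.41, 13.91 and 13.98 in HNK. All HNK arrays were below all WT arrays (difference -0.59, 95% interval -1.09 to -0.09, adjusted p = 0.251), and MUP overlapped with both groups. In HNK against MUP the 4 genes had differences of -0.34 to 0.10 and overlapping groups.

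In the PERK-ATF4 arm, Asns rose in transgenic liver. It encodes asparagine synthetase, an ATF4 target. Its log2 intensity was 6.90, 6.98 and 6.60 in WT, 9.09, 9.92 and 8.0 in MUP, and 7.28, 9.49 and 8.26 in HNK. All transgenic arrays were above all WT arrays, and they spread over a far wider range than the WT arrays. In MUP against WT the log2 difference was 2.18 (SE 0.53), a 4.52-fold higher level, with an adjusted p of 0.0454 from limma. This call was lost without WT 1 (adjusted p = 0.135), WT 2 (0.103), WT 3 (0.159), MUP 1 (0.124), MUP 2 (0.122) or HNK 3 (0.0596), and without both arrays with muscle signal (difference 1.72, adjusted p = 0.122). It was also lost without the variance trend and with the methods' t-test. In HNK against MUP the difference was -0.66 (95% interval -1.82 to 0.50), and in HNK against WT 1.52 (0.36 to 2.67, adjusted p = 0.191).

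The other members of that arm did not follow Asns. Atf4, the transcription factor itself, had means of 11.74 in WT, 11.67 in MUP and 11.69 in HNK. Ddit3, which encodes the ATF4-induced factor CHOP, was at 8.21 to 9.73 in WT, 7.97 to 9.01 in MUP and 8.16 to 8.36 in HNK, and Trib3, a pseudokinase induced by ATF4 and CHOP, was at 6.62 to 7.33, 6.22 to 6.79 and 6.78 to 7.05. For these 3 genes the groups overlapped in every comparison, and none passed the test. Ppp1r15a, the phosphatase subunit GADD34 that ends the PERK signal, was below the negative control median on all 9 arrays, so its lower HNK values (3.03 to 3.29, against 3.4 to 3.72 in MUP) carry no usable level.

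**Figure D2:**
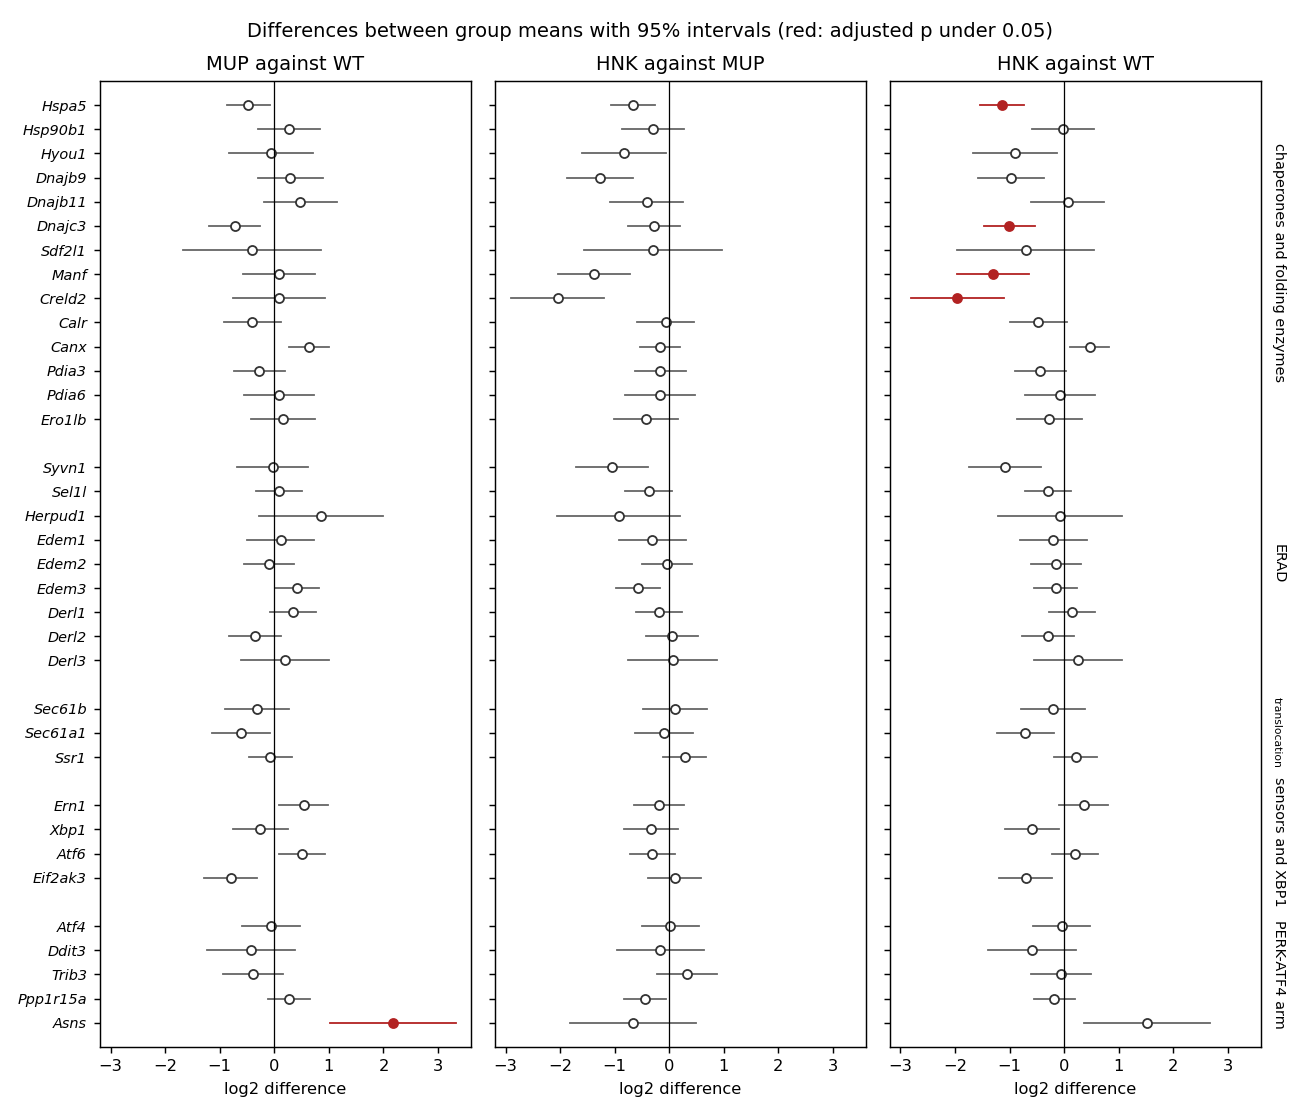
Log2 differences between group means (horizontal axis) of the 35 members, ordered by arm (vertical axis), for the 3 comparisons; lines are 95% intervals from the limma fit and filled red points have an adjusted p under 0.05. The filled points are Asns in MUP against WT and Hspa5, Dnajc3, Manf and Creld2 in HNK against WT.

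Counted over all 35 members, 1 was called higher in MUP against WT (Asns), beside 1.44% of all tested probe sets, and 0 were called lower, beside 2.13%. At an unadjusted p under 0.05, 5 were higher, beside 7.82%, and 4 were lower, beside 9.52%. The methods' t-test with the same adjustment called 0 members and also 0 of all 22206 probe sets. The MUP arrays lay wholly above the WT arrays in 8 members, beside 11% of all probe sets, and wholly below in 4, beside 12.5%. The members' median difference was 0.08, beside 0.004 over all probe sets. It was -0.11 without WT 2, so it had no steady sign.

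In HNK against MUP, limma called 0 members higher, beside 0.0045% of all probe sets (1 probe set, without a gene symbol), and 0 lower, beside 0%. At an unadjusted p under 0.05, 8 members were lower, beside 2.27%, and 0 were higher, beside 2.09%. The methods' t-test with adjustment called 0 members and 1 of all probe sets. A lower mean was found in 28 of 35, beside 51.5% of all probe sets. The HNK arrays lay wholly below the MUP arrays in 9 members, beside 4.48%, and wholly above in 1, beside 4.11%. Without Ppp1r15a, which was below the negative controls, 8 of 34 lay wholly below, and the 8 with an unadjusted p under 0.05 became 7. In 4 members, Creld2, Manf, Dnajb9 and Syvn1, they lay wholly below with a mean difference of at least 1, beside 0.176%. These 4 are all in the gene list that the study compiled on these same arrays, so this count is not independent evidence. Manf, named only through that list, also enters the other counts of lower members above. The members' median was -0.29, beside -0.0099 over all probe sets. It was -0.13 without HNK 1 and -0.26 without both arrays with muscle signal. An exact permutation test of 3 arrays against 3 cannot give a two-sided p below 0.1, and groups that lie wholly apart always give that value. For the 10 members with separate groups it therefore adds nothing.

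In HNK against WT, 0 members were called higher, beside 0.964% of all probe sets, and 4 were called lower, beside 1.33%. Manf, 1 of these 4, had its probe set named only through the study's gene list from these arrays. At an unadjusted p under 0.05, 2 were higher, beside 6.07%, and 10 were lower, beside 8.02%. The methods' t-test with adjustment called 0 members and 0 of all probe sets. A lower mean was found in 27 of 35, beside 50.7%. The HNK arrays lay wholly below the WT arrays in 9 members, beside 11.1%, and wholly above in 3 (Canx, Ern1 and Asns), beside 9.37%. The members' median was -0.21, beside -0.0055 over all probe sets. The 4 calls became 1 without WT 1, HNK 1, HNK 3 or both arrays with muscle signal, 2 without WT 2, and 0 without WT 3. MUP against WT and HNK against MUP share the 3 MUP arrays, so their values for a gene are not independent of each other. Likewise, MUP against WT and HNK against WT share the 3 WT arrays. A gene that moved alike in both transgenic groups was thus not observed independently in each.

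**Figure D3:**
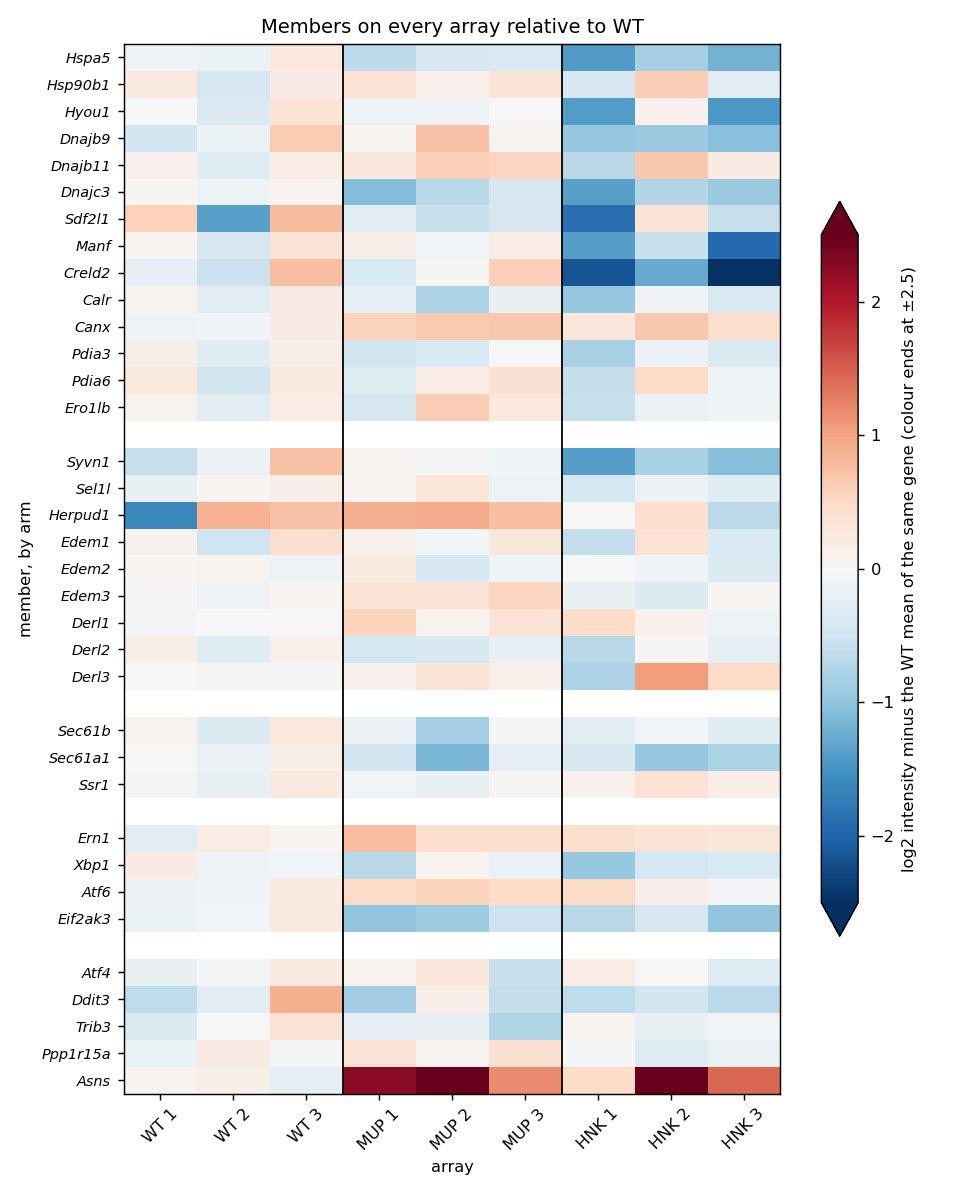
Log2 intensity of each member (rows, by arm) on each array (columns) minus the mean of the WT arrays for the same gene; blue is lower and red is higher. HNK 1 and HNK 3 are blue in most chaperones, HNK 2 is less so, and Asns is red on the 3 MUP arrays and on HNK 2 and HNK 3.

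The 3 HNK arrays were not alike in these genes. Relative to the MUP mean of each chaperone, HNK 1 was lower in 14 of 14 (median -0.84), HNK 3 in 13 of 14 (median -0.26) and HNK 2 in 6 of 14 (median 0.09). HNK 2 was the highest of the 3 HNK arrays in 13 of the 14 chaperones and in 24 of all 35 members, and HNK 1 the lowest in 10 of the 14. HNK 2 was also the array with the lowest macrophage median (7.92, against 10.15 and 10.35 on the other HNK arrays), and HNK 3 carried muscle signal; their part in this spread was not tested. The range over 3 arrays had a median of 0.57 over the members in HNK, 0.44 in MUP and 0.44 in WT, and was wider in HNK than in MUP in 22 of 35. Fewer members were low on all 3 HNK arrays. Creld2, Manf, Dnajb9, Syvn1 and Hspa5 lay below every WT and MUP array on all 3 HNK arrays. All but Hspa5 are in the study's own gene list from these arrays. The share of all probe sets for this was not counted, but it cannot exceed the 4.48% with HNK wholly below MUP. For the counts on single HNK arrays above no such share was counted, so they describe these members only.

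**Figure D4:**
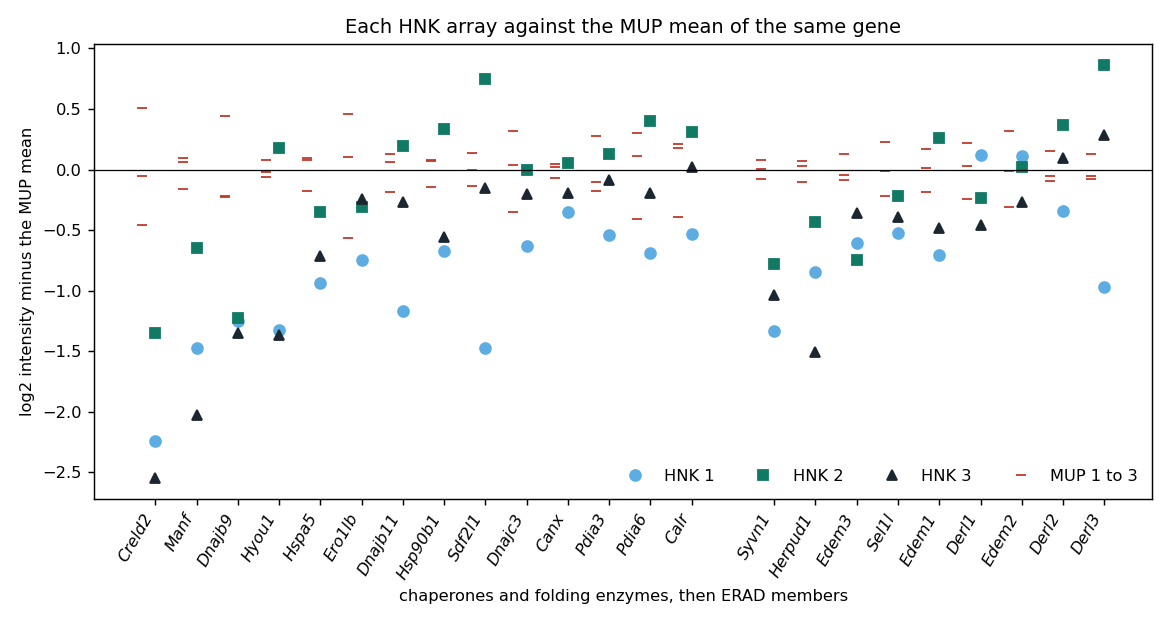
Log2 intensity of each HNK array minus the MUP mean of the same gene (vertical axis) for the 14 chaperones and folding enzymes and the 9 ERAD members (horizontal axis), with red dashes for the 3 MUP arrays. HNK 2 is the highest of the 3 in every chaperone but Ero1lb, and in Creld2 (-1.35) and Dnajb9 (-1.22) it too lies far below 0.

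Members with and without an ERSE match in the promoter table were set side by side, with no test. In HNK against MUP, 9 of the 10 with a match and 14 of the 20 without had a lower mean, with medians of -0.29 and -0.24. In HNK against WT, 8 of 10 and 16 of 20 had a lower mean, with medians of -0.37 and -0.19. Hspa5, Creld2 and Dnajc3, which fell, have a match, and so have Canx, Calr, Pdia6 and Hsp90b1, which did not pass the test. Dnajb9 has an entry and no match.

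Neighbouring pathways were read from lists of further genes, beside the percentages above. Of 23 other ER folding genes, 18 had a lower mean in HNK than in MUP (median -0.15) and 0 were called there. The single called gene of that list, in MUP against WT and in HNK against WT, was Prxl2a, at 13.14 to 13.75 in WT, 11.12 to 12.18 in MUP and 11.38 to 11.91 in HNK; it fell by 2.03 (adjusted p = 0.00368) and fell by 1.89 (adjusted p = 0.00799, limma), and it encodes a peroxiredoxin-like protein, not a chaperone. Of 16 other ERAD genes and 17 other regulators of the response, 0 were called in any comparison, with medians of -0.07 and 0.01 in HNK against MUP.

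Genes of entry into and exit from the ER had medians below 0 in both comparisons with WT. Of 25 translocon, signal peptidase and glycosylation genes, the median was -0.33 in MUP against WT and -0.38 in HNK against WT, against -0.02 in HNK against MUP, and Dad1, an oligosaccharyltransferase subunit, fell in both comparisons with WT (by 1.09 and 1.18; adjusted p = 0.0232 and 0.0207, limma). Of 21 ER to Golgi transport genes, with medians of -0.24, -0.07 and -0.37 in the 3 comparisons, 2 fell and 1 rose in MUP against WT and 5 fell in HNK against WT. Sar1b and Copa, a GTPase and a coat subunit of transport vesicles, fell in both (Sar1b by 1.16 and 1.09, Copa by 0.99 and 0.97), Sar1a rose by 0.76 in MUP, and Arfgap3, Mcfd2 and Sec23b fell in HNK against WT by 1.20, 1.11 and 0.98.

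Of 35 other ATF4 and CHOP targets, 0 were called higher, 3 were called lower in MUP against WT and 1 in HNK against WT. Atf5, a transcription factor induced in the integrated stress response, fell in both, by 1.46 (adjusted p = 0.0106, limma) and by 1.26 (adjusted p = 0.0301), which is the opposite direction to Asns. Slc3a2, an amino acid transporter subunit, fell by 0.80 in MUP against WT. The third gene, Tnfrsf10b, was below the negative control median on all 9 arrays, so its call carries no usable level. The list's median was 0.03 in MUP against WT, -0.06 in HNK against MUP, and -0.12 between HNK and WT.

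Chaperone genes outside the ER also passed the test against WT. Of 12 cytosolic heat shock genes, Hsp90aa1, the inducible cytosolic Hsp90, was at 15.27 to 15.44 in WT, 13.75 to 14.22 in MUP and 13.52 to 13.65 in HNK. It fell by 1.37 in MUP (adjusted p = 0.00173) and fell by 1.82 in HNK (adjusted p = 0.000366, limma), with no overlap between any groups. Hspb1, a small heat shock protein gene, fell by 2.18 and 1.81, and Stip1, an Hsp70 and Hsp90 co-chaperone gene, fell by 1.04 in HNK against WT. Of 11 mitochondrial chaperone and protease genes, Clpx, the unfoldase of the matrix protease ClpXP, was at 12.39 to 13.41 in WT, 9.71 to 10.19 in MUP and 9.90 to 10.998 in HNK. It fell by 3.11 in MUP (adjusted p = 0.000739) and by 2.46 in HNK (adjusted p = 0.00311, limma), while Hspa9, the mitochondrial Hsp70, rose by 1.33 and 0.97. In HNK against MUP no gene of these lists was called. There the cytosolic heat shock genes were close to the ER chaperones: 10 of 12 had a lower mean (median -0.34), and 4 (Hsph1, Hsp90aa1, Chordc1 and Stip1, named after their values were seen) had HNK arrays wholly below the MUP arrays and an unadjusted p under 0.05. The mitochondrial list had a median of -0.04, with 6 of 11 lower.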

How the data were processed

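The deposited intensity values, 1 per probe set and array, had been normalized by the authors, for which their notes name Affymetrix Expression Console and the RMA method; no version is given in the sources used here. They are linear, and log2 was taken. Of 28846 rows, 6640 control rows were left out. Symbols came from the platform annotation for 19572 of 22206 probe sets and from 26 probe-accession pairs of a supplementary gene table through RefSeq (Manf among them; Ero1lb is Ero1b there). A probe set without a platform symbol got a name only if it was in that table, the gene list compiled on these arrays. The table's averages and ratios were not used. With 2 probe sets for Ddit3 the brighter was taken.

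All 3 comparisons came from 1 limma 3.58.1 fit of the 9 arrays in R 4.3.3 (lmFit, eBayes with a trend in the variance; degrees of freedom were 6 residual and 5.83 prior), with two-sided p-values adjusted by Benjamini-Hochberg over 22206 probe sets and calls at an adjusted p under 0.05. The number of arrays limits the precision. The fit was tested on simulated data. No 2 arrays held identical values. Alternatives were other normalizations, filters, variance models, the replicate block and leaving out arrays.

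The members and lists were chosen with earlier results of these data known. Members called in any comparison, members wholly separated in HNK against MUP by at least 1, and sensors with Xbp1 are given on every array; others by range. Every called gene of the pathway lists was named. Motifs were searched in the RefSeq promoter table.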

Additional observations from a re-analysis of the deposited data

How the results depend on the processing

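Under 20 alternatives the counts of 0 members called (lower in MUP against WT, either way in HNK against MUP, higher in HNK against WT) stayed 0, and no member's difference changed sign where it was called. The 1 member higher in MUP against WT became 2 without the dimmest 40% of probe sets and with cyclic loess, where Canx joined Asns (adjusted p = 0.0398 and 0.0444, limma), and 0 without the variance trend, with the methods' t-test and without both arrays with muscle signal; leaving out 1 array gave 0 to 1. The 4 members lower in HNK against WT became 2 without the variance trend, 0 with the methods' t-test and 1 without both arrays with muscle signal; leaving out 1 array gave 0 to 5. The members' median ranged from -0.11 to 0.17 in MUP against WT, from -0.41 to -0.13 in HNK against MUP and from -0.39 to -0.16 in HNK against WT when 1 array was left out. Hspa5 kept its call in HNK against WT under 18 of 20 alternatives, Creld2 under 14, Dnajc3 under 12 and Manf under 4; Asns kept its call in MUP against WT under 11. The cause of these changes was not tested, beyond the smaller number of arrays or probe sets by construction.

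The labels number the replicates alike in each group. Deviations of same-numbered arrays correlated at -0.29 to 0.40 over the 3 comparisons, highest for replicate 1 in HNK against MUP. With 3 arrays a group these values cannot settle whether the numbers pair the samples, and the main fit used no pairing. With the replicate block, 1 member was higher in MUP against WT, 0 were called in HNK against MUP and 3 were lower in HNK against WT, where the medians stayed at 0.08, -0.29 and -0.21; Manf was the call lost (adjusted p = 0.0711).

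With 3 arrays a group, some differences near 1 on the log2 scale passed in HNK against WT (Dnajc3) and some did not (Dnajb9 and Syvn1). Genes below the negative controls, such as Ppp1r15a and Tnfrsf10b, have no usable level.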
